A study of Mus musculus with 11 samples.

Results

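Mecom, Hlf, Meis1, Prdm16, Gata2, Mllt3, Eya1, Tal1 and Lmo2 encode transcription regulators of blood stem cells, and their rows were read by symbol from a matrix of 55291 gene symbols counted in 11 libraries. All 9 were present, and all 9 were among the 17183 genes that passed the filter on low counts. The RNA came from bone marrow cells sorted as lineage negative, cKit positive and Sca-1 positive (LSK), the marrow fraction that holds blood stem cells and multipotent progenitors. The groups were 4 mice labelled Phf6R274X Tg (Tg), 3 mice labelled Phf6 knock out (KO) and 4 wild-type mice (WT), each given as an individual of the strain C57BL/6. Phf6, on the X chromosome, encodes a chromatin protein with plant homeodomain fingers, and R274X names a premature stop in it. The sources used here give no age, no sex, no promoter for the transgene, no number of founder lines and no cell type in which the knockout was made.

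Blood stem cells are kept by a small set of DNA-binding proteins and their cofactors that act on one another's enhancers. GATA2 binds GATA sites, TAL1 binds E-boxes with an E-protein partner, and LMO2 is the LIM-domain bridge that joins them in one complex. MEIS1 binds DNA beside HOX proteins, HLF binds PAR-type bZIP sites, MECOM and PRDM16 are related zinc-finger proteins with a PR domain, MLLT3 reads acylated histones, and EYA1 is a phosphatase that coactivates sine oculis homeobox proteins.

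No member passed edgeR's quasi-likelihood test in any comparison (Benjamini-Hochberg adjusted p under 0.05 over all genes tested). In Tg against WT 0 of 9 were called, where 4.92% of all genes tested were, and 0 of 9 had an unadjusted p under 0.05, where 22.1% of all genes had. In KO against WT 0 of 9 were called, where 0.0233% of all genes were, and 3 of 9 had an unadjusted p under 0.05, where 7.09% of all genes had. These 3 were Prdm16, Eya1 and Meis1, all with lower values in KO, where 3.75% of all genes were lower at that p. In Tg against KO 0 of 9 were called, where 5.69% of all genes were, and 3 of 9 had an unadjusted p under 0.05, where 21.7% of all genes had. These 3 were Prdm16, Meis1 and Tal1, all with higher values in Tg, where 10.7% of all genes were higher at that p. limma-voom called 0 members in every comparison. DESeq2 called 0 in Tg against WT, 0 in KO against WT and 2 in Tg against KO, namely Prdm16 (adjusted p = 0.00429 by DESeq2) and Meis1 (adjusted p = 0.0272 by DESeq2). Over the 17183 genes tested, DESeq2 called 942 higher and 970 lower in Tg against WT and 51 and 48 in KO against WT. In Tg against KO it called 963 higher and 959 lower. In bulk RNA, fewer cells of a type and less RNA per cell cannot be told apart.

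The libraries held 20990446 to 45632018 counts. The members had between 532 counts (Prdm16 in a KO library) and 17031, so that counting error was 4.34% of the value at the lowest and 0.766% at the highest. Phf6 itself ran from 183 to 278 CPM (counts in units of a common library size, with edgeR's TMM factors) in Tg, from 15.4 to 24.0 in KO and from 110 to 142 in WT. It was called in all 3 comparisons by edgeR, with a log2 fold change of 0.86 in Tg against WT, -2.64 in KO against WT and 3.50 in Tg against KO. The first of these calls was lost without WT replicate 2 (edgeR adjusted p = 0.0563). Xist was at most 0.324 CPM in Tg, against 32.6 to 41.1 in KO and 48.8 to 54.2 in WT. The sum of 4 Y-linked genes was 54.3 to 368 CPM in Tg, 0.0335 to 114 in KO and 0.0634 to 134 in WT. KO replicates 1 and 2 and WT replicates 1, 2 and 4 held both Xist and Y-linked reads above 1 CPM although the labels give individual mice. All 4 Tg libraries carried Y-linked reads without Xist. Sex and the Tg genotype can therefore not be told apart, and the values without those 5 libraries are given for the members after the account of each gene and for the other genes beside their calls. Without them, Phf6 itself was no longer called in Tg against WT (0.94, edgeR adjusted p = 0.361) or in KO against WT (-2.91, edgeR adjusted p = 0.184). Of the gate's own markers, Kit averaged 768 CPM in Tg, 610.1 in KO and 729 in WT, and Ly6a, the gene for Sca-1, averaged 25.1, 32.2 and 25.6 CPM in the same order.

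Levels were compared between genes as CPM per kilobase of annotated exon (GENCODE M21, GRCm38), since the members' exon lengths ran from 2166 to 12427 bases. Lmo2 had the highest level of the 9 in every group, with 187 ± 7.91 CPM per kb in Tg, 178 ± 8.69 in KO and 198 ± 15.9 in WT (SD, n = 4, 3 and 4). Prdm16 had the lowest in every group, with 3.92 ± 1.30 CPM per kb in Tg, 2.04 ± 0.303 in KO and 3.23 ± 0.910 in WT. In WT the order was Lmo2, Hlf (43.8 ± 13.1 CPM per kb), Gata2 (34.7 ± 5.88), Tal1 (28.8 ± 1.33), Meis1 (28.1 ± 4.48), Eya1 (9.48 ± 1.40), Mecom (7.53 ± 1.87), Mllt3 (6.43 ± 1.04) and Prdm16. The libraries of neighbouring genes overlapped from Hlf through Gata2 and Tal1 to Meis1 and from Eya1 through Mecom to Mllt3, and they did not overlap between Lmo2 and Hlf, between Meis1 and Eya1, or between Mllt3 and Prdm16. The order of means was the same in KO, where Hlf did not overlap with Gata2, nor Tal1 with Meis1. In Tg the order differed only in Mecom (8.01 ± 1.88 CPM per kb) and Eya1 (7.99 ± 1.44), whose libraries overlapped, and Prdm16 overlapped with Mllt3 (5.97 ± 2.69).

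**Figure D1:**
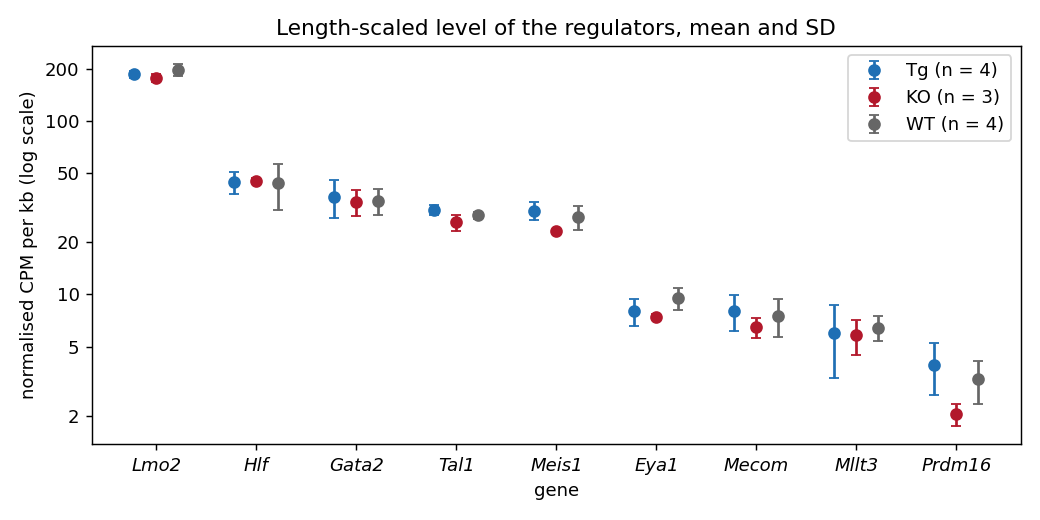
Mean normalised CPM per kb of exon (log axis) of the 9 regulators in Tg, KO and WT LSK cells, with bars for the SD over 4, 3 and 4 libraries. Lmo2 stands above the rest at 178 to 198 CPM per kb and Prdm16 lies lowest at 2.04 to 3.92 in the 3 groups.

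Promoter sequence is shown for Prdm16, Meis1 and Tal1, the 3 members with an unadjusted p under 0.05 in Tg against KO, and for Mecom as the relative of Prdm16. The windows are the 250 bases before an annotated start, read 5′ to 3′ on the gene's strand from RefSeq (GRCm38.p6). Prdm16 is read at chr4:154636874-154637123 and Meis1 at chr11:19018970-19019219, both on the minus strand. Tal1 is read at chr4:115056176-115056425 on the plus strand and Mecom at chr3:30509760-30510009 on the minus strand, each from 1 of 2 starts listed. Capitals mark the letters searched for, on either strand. For TAL1 the E-box CAGATG was searched, and for GATA factors AGATAA. For ETS factors the letters were GGAAGT, and for MEIS1 they were TGACAG. An arm of the PAR bZIP site was searched as TTACGT, and the TATA box as TATAAA.
Prdm16: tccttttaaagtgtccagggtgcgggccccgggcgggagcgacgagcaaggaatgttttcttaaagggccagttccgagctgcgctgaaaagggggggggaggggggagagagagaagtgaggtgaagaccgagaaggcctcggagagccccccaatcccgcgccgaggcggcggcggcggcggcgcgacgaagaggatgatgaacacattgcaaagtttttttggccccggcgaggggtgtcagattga
Meis1: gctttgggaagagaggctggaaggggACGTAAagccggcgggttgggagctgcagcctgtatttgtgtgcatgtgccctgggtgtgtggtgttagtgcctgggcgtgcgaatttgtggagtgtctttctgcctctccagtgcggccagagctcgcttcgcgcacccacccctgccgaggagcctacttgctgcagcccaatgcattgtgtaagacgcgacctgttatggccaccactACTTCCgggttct
Tal1: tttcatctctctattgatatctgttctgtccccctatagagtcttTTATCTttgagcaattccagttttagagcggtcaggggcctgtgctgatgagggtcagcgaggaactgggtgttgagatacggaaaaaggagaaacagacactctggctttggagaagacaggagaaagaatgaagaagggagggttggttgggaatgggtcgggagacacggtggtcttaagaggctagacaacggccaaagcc
Mecom: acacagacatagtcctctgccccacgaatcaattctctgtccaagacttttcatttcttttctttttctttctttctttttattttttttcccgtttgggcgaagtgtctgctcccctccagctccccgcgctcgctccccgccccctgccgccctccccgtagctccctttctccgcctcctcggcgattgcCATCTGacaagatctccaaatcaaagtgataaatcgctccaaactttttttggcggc
The Prdm16 window held 0 matches. The Meis1 window held ACGTAA, the reverse complement of the PAR bZIP arm, 224 bases before the start, and ACTTCC, that of the ETS letters, 13 bases before it. The Tal1 window held TTATCT, the reverse complement of the GATA letters, 205 bases before its start. The Mecom window held CATCTG, the reverse complement of the E-box, 57 bases before its start. The other Tal1 window, at chr4:115057561-115057810, is not shown and held 0 matches. The other Mecom window, at chr3:30013205-30013454, held no E-box. It held CTGTCA, the reverse complement of the MEIS letters, 86 bases before its start. These matches describe letters and not bound sites. RefSeq's table held 11 windows for 7 of the 9 members. Beside these stand the shares over all 32817 windows of the table and over the 14119 windows of genes tested here. The TAL1 E-box was found in 2 of the 11 windows, in 14.5% of all windows and in 10.1% of those of tested genes, and the GATA letters in 1, in 9.99% and in 6.37%. The ETS letters were found in 1, in 19.7% and in 23.1%, and the MEIS letters in 2, in 15.9% and in 14.0%. The PAR bZIP arm was found in 1, in 2.39% and in 2.80%, and the TATA letters in 0, in 12.4% and in 6.81%.

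The genes of the GATA2, TAL1 and LMO2 complex overlapped between the genotypes in every comparison. Gata2, for the GATA factor of stem and early progenitor cells (chromosome 6, 88193891 to 88207032, plus strand), had 162, 197, 167 and 267 CPM in Tg, 215, 152 and 187 in KO and 156, 217, 164 and 212 in WT. Tg replicate 4 held the highest value, and the 3 groups overlapped. The log2 fold change was 0.082 in Tg against WT (SE 0.18, 95% interval -0.30 to 0.47, edgeR adjusted p = 0.834), -0.019 in KO against WT (SE 0.19, -0.43 to 0.40, edgeR adjusted p = 0.993) and 0.10 in Tg against KO (SE 0.19, -0.32 to 0.52, edgeR adjusted p = 0.818). Tal1, for the basic helix-loop-helix protein on which blood formation depends (chromosome 4, 115056426 to 115071755, plus strand), had 127, 128, 137 and 146 CPM in Tg, 128, 103 and 112 in KO and 132, 118, 125 and 128 in WT. KO replicate 1 lay inside the Tg range, and the other KO libraries lay below it. The log2 fold change of Tal1 was 0.23 in Tg against KO (SE 0.085, 95% interval 0.048 to 0.42, unadjusted p = 0.0181, edgeR adjusted p = 0.134), 0.095 in Tg against WT (SE 0.079, edgeR adjusted p = 0.525) and -0.14 in KO against WT (SE 0.085, edgeR adjusted p = 0.782).

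Lmo2 (chromosome 2, 103957986 to 103981878, plus strand) had 412, 410.2, 416 and 379 CPM in Tg, 372, 408 and 379 in KO and 472, 391, 415 and 439 in WT. The WT libraries reached higher than the others, the groups overlapped, and the coefficient of variation within groups was 4.24% to 8.05%. The log2 fold change was -0.087 in Tg against WT (SE 0.074, 95% interval -0.25 to 0.076, edgeR adjusted p = 0.541), -0.15 in KO against WT (SE 0.080, -0.33 to 0.024, edgeR adjusted p = 0.734) and 0.065 in Tg against KO (SE 0.080, -0.11 to 0.24, edgeR adjusted p = 0.704). These were the narrowest intervals of the 9 members in each comparison.

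Meis1, for the TALE homeodomain partner of HOX proteins (chromosome 11, 18879817 to 19018985, minus strand), had 311, 279, 371 and 326 CPM in Tg, 243.7, 243.9 and 244.0 in KO and 356, 287, 242 and 300.5 in WT. Every Tg library lay above every KO library, while WT spanned both. Meis1 averaged 322 ± 38.3 CPM in Tg and 244 ± 0.164 in KO (SD, n = 4 and 3), a log2 fold change of 0.40 (SE 0.13, 95% interval 0.12 to 0.67, unadjusted p = 0.0086, edgeR adjusted p = 0.0903). The SD of the KO libraries was under the 2.62 CPM that counting error alone gives, so it is no measure of how KO mice vary. With the Y-linked level as a covariate the difference was 0.21 (edgeR adjusted p = 0.474), and without the libraries holding both Xist and Y-linked reads it was 0.40. Against WT (296 ± 47.2 CPM) the log2 fold change was 0.12 in Tg (SE 0.12, edgeR adjusted p = 0.603; 0.026 without WT replicate 3) and -0.28 in KO (SE 0.13, 95% interval -0.56 to -0.0062, unadjusted p = 0.0458, edgeR adjusted p = 0.695). The KO value was 0.0215 without the 5 mixed libraries, which leaves 1 KO and 1 WT library.

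Hlf, for the PAR bZIP factor that marks and maintains quiescent mouse stem cells (chromosome 11, 90336536 to 90390895, minus strand), had 290.3, 245, 307 and 351 CPM in Tg, 312, 292 and 307 in KO and 386, 252, 191 and 341 in WT. The WT libraries differed from each other more than the genotypes did, with WT replicate 1 about 2.02 times WT replicate 3. Hlf averaged 298 ± 44.2 CPM in Tg, 304 ± 10.2 in KO and 293 ± 87.7 in WT. The log2 fold change was 0.029 in Tg against WT (SE 0.19, 95% interval -0.38 to 0.44, edgeR adjusted p = 0.949), and -0.0151 when libraries were scaled by their totals alone. It was 0.054 in KO against WT (SE 0.20, -0.39 to 0.50, edgeR adjusted p = 0.977) and -0.026 in Tg against KO (SE 0.20, -0.47 to 0.42, edgeR adjusted p = 0.965).

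Prdm16, for the PR-domain zinc-finger protein required for stem cell maintenance in mice (chromosome 4, 154316125 to 154636873, minus strand), differed most among the members in each comparison. It had 30.8, 28.7, 32.1 and 54.7 CPM in Tg, 22.2, 17.0 and 17.8 in KO and 40.9, 25.0, 21.9 and 32.6 in WT. All 4 Tg libraries lay above all 3 KO libraries, and WT overlapped with both. Prdm16 averaged 36.6 ± 12.2 CPM in Tg and 19.0 ± 2.83 in KO, a log2 fold change of 0.94 (SE 0.26, 95% interval 0.37 to 1.51, unadjusted p = 0.00377, edgeR adjusted p = 0.0577). Tg replicate 4 stood apart at 54.7 CPM, and without it the log2 fold change was 0.68, against 0.54 with the Y-linked level as a covariate (edgeR adjusted p = 0.334) and 1.04 without the mixed libraries. The threshold fell close to this value: edgeR called Prdm16 with no filter on low counts (adjusted p = 0.0402), without WT replicate 1 (adjusted p = 0.0483) and without WT replicate 3 (adjusted p = 0.0497). Against WT (30.1 ± 8.48 CPM) the log2 fold change was -0.66 in KO (SE 0.26, 95% interval -1.23 to -0.095, unadjusted p = 0.0259, edgeR adjusted p = 0.665) and 0.28 in Tg (SE 0.24, -0.23 to 0.80, edgeR adjusted p = 0.531). Without Tg replicate 4 the Tg value was 0.021.

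Mecom, for the zinc-finger protein EVI1 and its longer MDS1-EVI1 form (chromosome 3, 29951296 to 30548008, minus strand), had 95.7, 85.8, 83.1 and 134 CPM in Tg, 76.7, 72.2 and 92.1 in KO and 125, 81.3, 71.9 and 96.1 in WT. Tg replicate 4 and WT replicate 1 were the high libraries, and all groups overlapped. The log2 fold change was 0.089 in Tg against WT (SE 0.19, 95% interval -0.32 to 0.50, edgeR adjusted p = 0.831), -0.22 in KO against WT (SE 0.20, -0.66 to 0.22, edgeR adjusted p = 0.855) and 0.31 in Tg against KO (SE 0.20, -0.14 to 0.75, edgeR adjusted p = 0.426). Without Tg replicate 4 the value against KO was 0.14 in Tg, and without WT replicate 1 that against WT was -0.058 in KO. The deposited counts do not tell the 2 protein forms apart. Other genes overlap Mecom, Meis1, Prdm16, Eya1 and Lmo2 on the opposite strand. The strand setting of the counting is not given in the sources used here, and reads of such neighbours could be counted with these members.

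Mllt3, for the AF9 protein of the elongation and DOT1L complexes that sustains human stem cells in culture (chromosome 4, 87769925 to 88033364, minus strand), had 52.7, 49.8, 65.0 and 119 CPM in Tg, 87.7, 56.8 and 64.2 in KO and 84.5, 88.0, 59.9 and 76.6 in WT. It varied most of the 9 within a group, with a coefficient of variation of 45.0% in Tg, where replicate 4 held 119 CPM. The log2 fold change was -0.11 in Tg against WT (SE 0.26, 95% interval -0.68 to 0.46, edgeR adjusted p = 0.849), -0.15 in KO against WT (SE 0.28, -0.76 to 0.46, edgeR adjusted p = 0.941) and 0.040 in Tg against KO (SE 0.28, -0.57 to 0.65, edgeR adjusted p = 0.959). Without Tg replicate 4 the values in Tg were -0.47 against WT and -0.32 against KO.

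Eya1 (chromosome 1, 14168954 to 14310235, minus strand) had 59.9, 49.8, 77.0 and 62.9 CPM in Tg, 60.3, 57.7 and 56.5 in KO and 88.0, 77.5, 64.8 and 65.9 in WT. All 3 KO libraries lay below all 4 WT libraries, while Tg spanned both. Eya1 averaged 58.1 ± 1.97 CPM in KO and 74.0 ± 10.9 in WT, a log2 fold change of -0.35 (SE 0.14, 95% interval -0.66 to -0.036, unadjusted p = 0.0317, edgeR adjusted p = 0.670). In Tg, with 62.4 ± 11.3 CPM, it was -0.25 against WT (SE 0.13, 95% interval -0.54 to 0.040, unadjusted p = 0.0846, edgeR adjusted p = 0.301), the lowest p of the 9 in that comparison, and 0.10 against KO (SE 0.14, -0.21 to 0.41, edgeR adjusted p = 0.748).

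**Figure D2:**
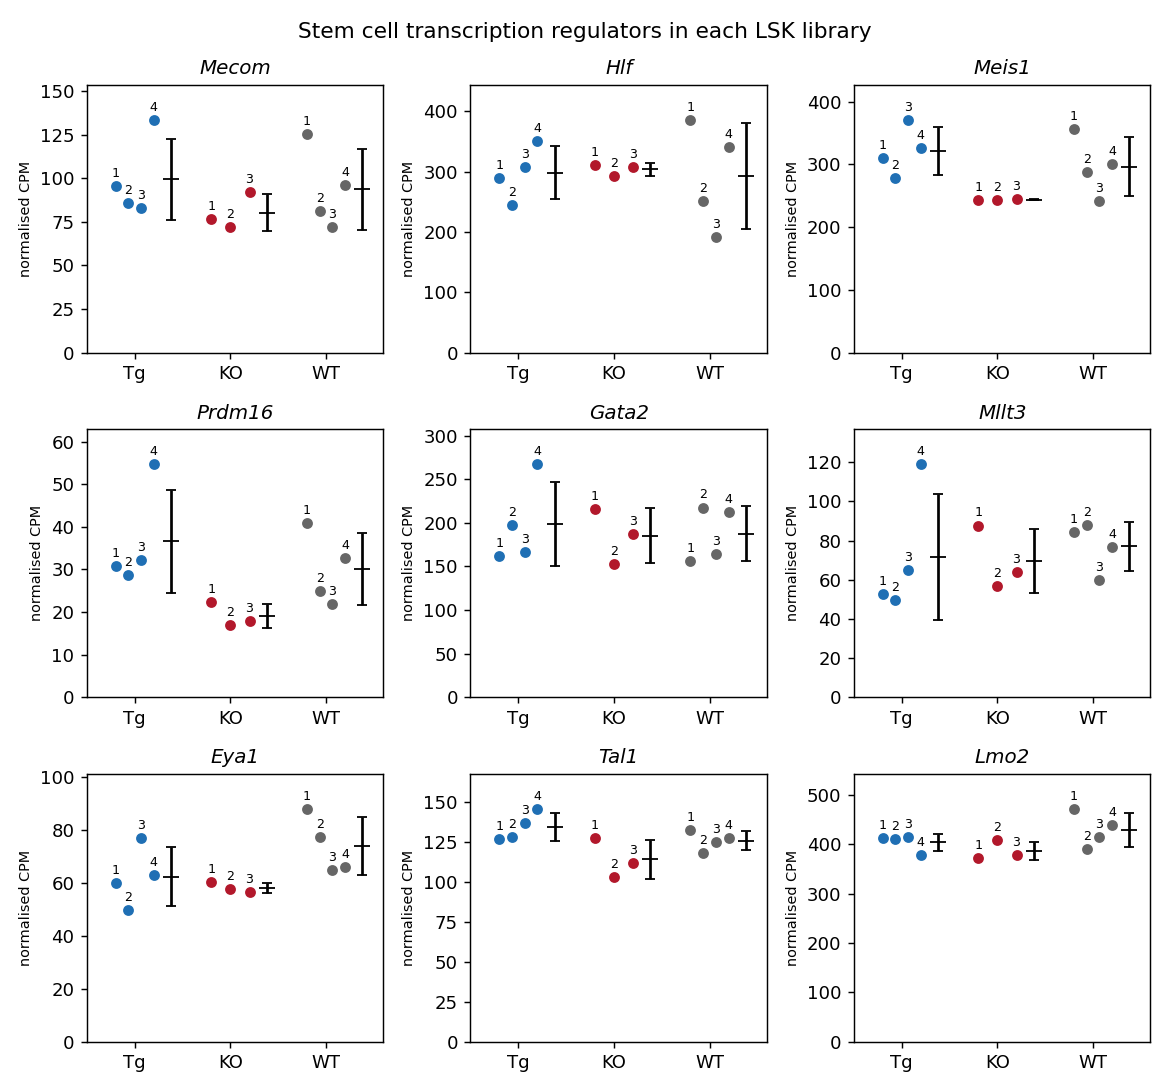
Normalised CPM of each regulator in each library (points) by genotype (Tg, KO, WT, left to right), with the group mean and SD; each panel has its own axis from 0. All 4 Tg libraries lie above all 3 KO libraries for Prdm16 (28.7 to 54.7 against 17.0 to 22.2 CPM) and Meis1 (279 to 371 against 243.7 to 244.0 CPM), and the 3 KO libraries of Eya1 lie below the 4 WT libraries.

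Set against all genes, the members lay close to 0 in Tg against WT. Their median log2 fold change was 0.082, against 0.0052 over all genes tested, and the median of its absolute size was 0.095, against 0.20 over all genes. The genes tested include some with far fewer counts and were not matched to the members for level. Values above 0 were found for 6 of 9 members, where 50.8% of all genes lay above 0. With the Y-linked level as a covariate 3 of 9 lay above 0, since Mecom (-0.014), Hlf (-0.15) and Gata2 (-0.025) turned, and the median was -0.025; with library totals alone 5 of 9 did, since Hlf turned. Of the 9 members 0 had groups that did not overlap, where 9.85% of all genes had. The 95% intervals of all 9 stayed within a 2-fold change in either direction. In KO against WT the median was -0.15, against -0.0053 over all genes, with 8 of 9 members below 0, where 51.1% of all genes were; with the covariate 6 of 9 lay below 0. Of the 9 members 1 (Eya1, 11.1%) had KO and WT libraries that did not overlap, where 7.5% of all genes had. In Tg against KO the median was 0.10, against 0.013 over all genes, with 8 of 9 members above 0, where 52% of all genes were; with the covariate 5 of 9 lay above 0. Of the 9 members 2 (Prdm16 and Meis1, 22.2%) did not overlap, where 20.8% of all genes did not. In each of these last comparisons 8 of 9 intervals stayed within a 2-fold change, Prdm16 being the exception. The 3 comparisons share groups, so they are not separate evidence of one another.

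**Figure D3:**
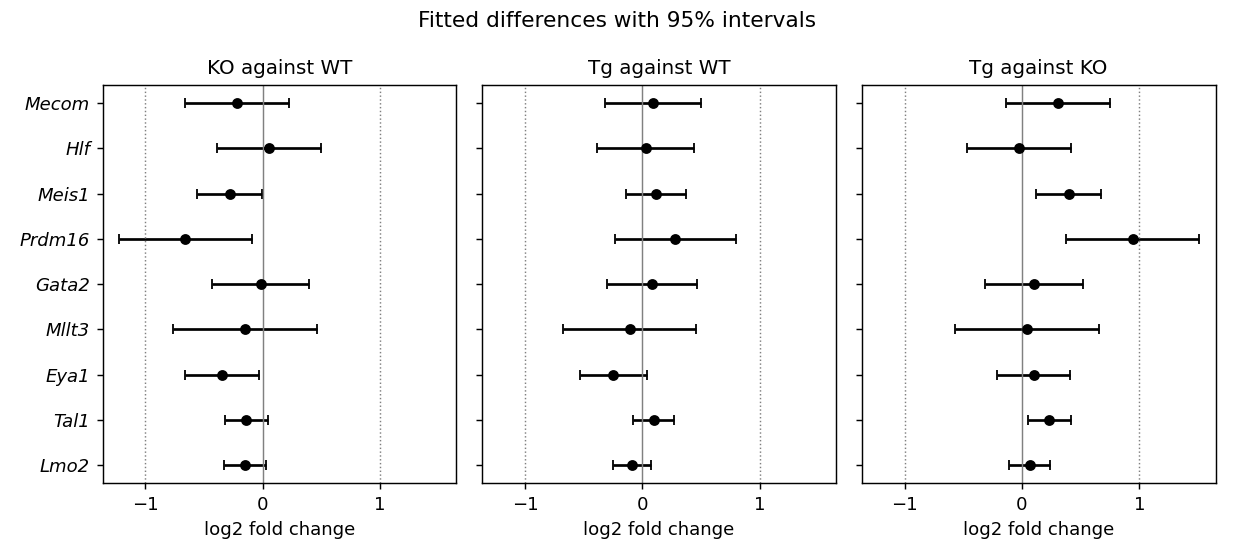
Log2 fold change (horizontal axis, points) of the 9 regulators with its 95% interval (lines) in Tg against WT, KO against WT and Tg against KO, from edgeR's fit of 17183 genes. Most intervals include 0; those of Prdm16 and Meis1 lie above 0 in Tg against KO (0.94 and 0.40), as does that of Tal1 (0.23), and those of Prdm16, Meis1 and Eya1 lie below 0 in KO against WT (-0.66, -0.28 and -0.35).

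Without the 5 libraries holding both Xist and Y-linked reads, 4 Tg, 1 KO and 1 WT library were left, and the lone libraries were taken to vary like the Tg libraries. edgeR then called 0 of 9 members in each comparison, where 0.177% of all 18079 genes tested were called in Tg against WT, 0% in KO against WT and 0.465% in Tg against KO. In each comparison 1 of 9 had an unadjusted p under 0.05. This was Hlf in Tg against WT, where 9.39% of all genes had such a p, and in KO against WT, where 4.8% had, and it was Prdm16 in Tg against KO, where 9.61% had. In Tg against WT the log2 fold change was 0.28 for Gata2, 0.11 for Tal1, -0.034 for Lmo2, 0.42 for Meis1, 0.65 for Hlf, 0.75 for Prdm16, 0.48 for Mecom, 0.27 for Mllt3 and -0.047 for Eya1. In KO against WT it was 0.20 for Gata2, -0.15 for Tal1, -0.13 for Lmo2, 0.0215 for Meis1, 0.69 for Hlf, -0.29 for Prdm16, 0.37 for Mecom, 0.11 for Mllt3 and -0.19 for Eya1. In Tg against KO it was 0.082 for Gata2, 0.26 for Tal1, 0.092 for Lmo2, 0.40 for Meis1, -0.043 for Hlf, 1.04 for Prdm16, 0.11 for Mecom, 0.16 for Mllt3 and 0.14 for Eya1. Mecom, Meis1, Gata2 and Mllt3 turned from negative to positive in KO against WT, as did Mllt3 in Tg against WT, and Prdm16 stayed negative in KO against WT and positive in the other comparisons.

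Within a genotype, the highest or lowest values of several members fell in the same library. How often this held over all genes was not counted. Tg replicate 4 had the highest Tg value for 6 of 9 members (Mecom, Hlf, Prdm16, Gata2, Mllt3 and Tal1) and the lowest for Lmo2. KO replicate 1 had the highest KO value for 6 members and the lowest for Meis1 and Lmo2, and KO replicate 2 had the lowest for 6. WT replicate 1 had the highest WT value for 7 members and the lowest for Gata2, and WT replicate 3 had the lowest for 6. Mecom, Hlf, Meis1 and Prdm16 shared 1 order of the WT libraries, replicate 1 above 4 above 2 above 3. WT replicate 3 was the only WT library without Y-linked reads above 1 CPM; the part of sex or of mixed material in this order was not tested.

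**Figure D4:**
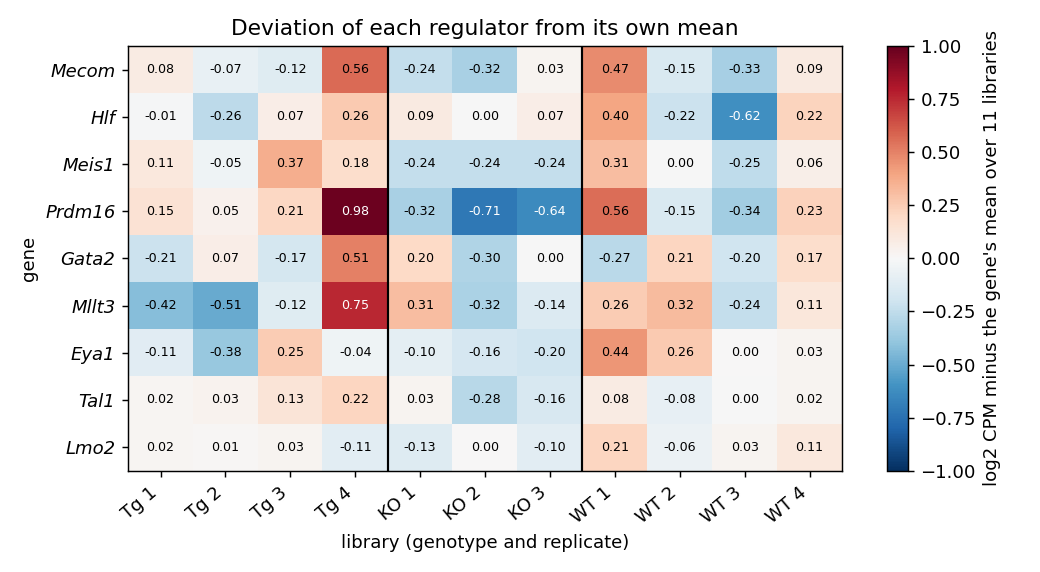
Deviation of the log2 CPM of each regulator from its own mean over the 11 libraries (colour scale), with genes in rows and the Tg, KO and WT libraries in columns. Tg replicate 4 and WT replicate 1 are high for most genes, and WT replicate 3 is low for 6 of the 9 within WT.

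The genes most like each member over the 11 libraries were sought among 10129 protein-coding genes of at least 5 CPM on average, by the root-mean-square difference of log2 CPM after centring. Prdm16, whose own values had a root-mean-square deviation of 0.480, lay nearest to Procr (0.121), the gene for the stem cell surface protein EPCR, then Ccdc112 (0.138). Mecom (own deviation 0.280) lay nearest to Angpt1 (0.0868), a ligand of the TIE2 receptor, then Akap17b (0.104) and Slc25a36 (0.114), and Hlf (0.268) to Il21r (0.0897), Vipr2 (0.104) and Zfp738 (0.110). Meis1 (0.216) lay nearest to Fer (0.0774) and Pyroxd1 (0.0818), and Eya1 (0.226) to Fchsd2 (0.0782), Spopl (0.0795) and Txnrd3 (0.0894). Gata2 (0.243) lay nearest to Cerk (0.0980), Ptger4 (0.111) and Acp6 (0.117), and Mllt3 (0.365) to C1galt1 (0.136), Slc8a1 (0.146) and Lmbrd2 (0.149). Tal1 (0.130) lay nearest to Fndc3a (0.0428), Diaph1 (0.0522) and Nol8 (0.0599), and Lmo2 (0.0958) to Tspan14 (0.0509) and Setd2 (0.0510). Among themselves, Prdm16 lay nearest to Mecom (0.290), Mecom to Hlf (0.211), Gata2 to Tal1 (0.223), Mllt3 to Gata2 (0.263), Eya1 to Meis1 (0.191), Meis1 to Tal1 (0.158) and Tal1 to Lmo2 (0.150). The 0.150 between Tal1 and Lmo2 exceeded the own deviation of either gene (0.130 and 0.0958), the distance to a gene that does not vary. All of these are distances over 11 libraries that share genotype and depth, given as a description.

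Among the partners of the GATA2, TAL1 and LMO2 complex, 1 of 18 genes tested was called in Tg against WT and in Tg against KO, and 0 in KO against WT, where the lowest p was that of Lmo1 (log2 fold change 0.66, edgeR adjusted p = 0.618). The called gene was Tcf4, for an E-protein that pairs with TAL1. Tcf4 had 192, 163, 232 and 202 CPM in Tg, 285, 289.9 and 261 in KO and 315, 326, 254 and 265 in WT. All 4 Tg libraries lay below every other library. Tcf4 fell by 0.56 on the log2 scale in Tg against WT (SE 0.11, edgeR adjusted p = 0.0233) and by 0.50 in Tg against KO (SE 0.12, edgeR adjusted p = 0.0396). The first call was lost without WT replicate 1 or 2 or Tg replicate 1 or 2 (edgeR adjusted p up to 0.0758). The second was lost without any one of the KO libraries, WT replicate 1 or Tg replicate 1, 2 or 4 (edgeR adjusted p up to 0.138). Without the mixed libraries neither was called, with -0.36 in Tg against WT (edgeR adjusted p = 0.652) and -0.40 in Tg against KO (edgeR adjusted p = 0.600). The list's median log2 fold change was -0.045 in Tg against WT, 0.042 in KO against WT and -0.10 in Tg against KO, beside 0.0052, -0.0053 and 0.013 over all genes tested. Of the other factors of the stem cell heptad and their ETS and Runt relatives, 0 of 9 were called in any comparison, with medians of 0.00029, -0.051 and -0.061 in the same order. The lowest p belonged to Elf1 in Tg against WT (-0.33, SE 0.086, edgeR adjusted p = 0.0533) and to Runx2 in KO against WT (0.13, edgeR adjusted p = 0.805) and in Tg against KO (-0.23, edgeR adjusted p = 0.163).

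Of the relatives and partners of MEIS1 and HLF, 10 of 11 were tested, and edgeR called 0 of them in Tg against WT and 0 in KO against WT. In both comparisons the lowest p was that of Pbx3, a homeodomain gene (log2 fold change 0.65 in Tg, edgeR adjusted p = 0.0631; 0.60 in KO, edgeR adjusted p = 0.583). The medians of this list were -0.019 in Tg against WT, -0.057 in KO against WT and 0.017 in Tg against KO.

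Of 10 cofactors of MECOM and PRDM16, 1 was called: Ski, a corepressor of SMAD signalling, which rose by 0.43 in Tg against KO (SE 0.087, edgeR adjusted p = 0.0190), with means of 76.5 CPM in Tg and 56.9 in KO. Leaving out KO replicate 1, 2 or 3 ended the call (edgeR adjusted p up to 0.0943), as did the Y-linked covariate (0.39, edgeR adjusted p = 0.0938) and leaving out the mixed libraries (0.41, edgeR adjusted p = 0.399). Ski also had the lowest p of the list in Tg against WT (0.28, edgeR adjusted p = 0.0690) and in KO against WT (-0.15, edgeR adjusted p = 0.768), and the list's medians were 0.043, 0.0026 and -0.013 in Tg against WT, KO against WT and Tg against KO. Of the elongation and DOT1L partners of MLLT3, 0 of the 17 tested of 18 were called in any comparison, with medians of -0.069, -0.037 and -0.087 in the same order. The lowest p belonged to Aff3 in Tg against WT (-0.28, edgeR adjusted p = 0.113), Mllt1 in KO against WT (0.27, edgeR adjusted p = 0.649) and Eaf1 in Tg against KO (-0.11, edgeR adjusted p = 0.406). Of the sine oculis homeobox and DACH partners and relatives of EYA1, 0 of the 6 tested of 9 were called, with medians of 0.084, -0.090 and 0.30. The lowest p was that of Dach1 in Tg against WT (0.23, edgeR adjusted p = 0.209) and in Tg against KO (0.42, SE 0.11, edgeR adjusted p = 0.0516), and that of Eya2 in KO against WT (-0.50, edgeR adjusted p = 0.676).

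Of 16 genes reported as targets of the members, 1 was called in each direction in Tg against WT, 0 in KO against WT and, in the lower direction, 1 in Tg against KO, with medians of 0.021, -0.0089 and 0.059. Mfn2, a mitochondrial fusion protein, rose by 0.28 in Tg against WT (SE 0.072, edgeR adjusted p = 0.0460), with means of 81.0 CPM in Tg and 66.5 in WT. Trib2, a pseudokinase reported as a MEIS1 target, fell by 1.48 in Tg against WT (SE 0.38, edgeR adjusted p = 0.0470) and by 1.97 in Tg against KO (SE 0.40, edgeR adjusted p = 0.0184), with means of 4.71 CPM in Tg, 18.5 in KO and 13.2 in WT. The call of Mfn2 was lost without any one library other than WT replicate 3 or Tg replicate 3 (edgeR adjusted p up to 0.126). That of Trib2 against WT was lost without any one library other than WT replicate 3 or Tg replicate 4 (up to 0.139). The call of Trib2 against KO was lost without KO replicate 1 or 3 or Tg replicate 1 or 2 (up to 0.0731). Without the mixed libraries none of these was called. Trib2 was then -0.60 in Tg against WT (edgeR adjusted p = 0.778) and -1.95 in Tg against KO (edgeR adjusted p = 0.211), and Mfn2 was 0.24 in Tg against WT (edgeR adjusted p = 0.672).

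Of 19 other stem cell transcription regulators 18 were tested, with medians of 0.16 in Tg against WT, -0.087 in KO against WT and 0.34 in Tg against KO. DESeq2 called 5 of the 18 in Tg against WT and 4 in Tg against KO. Over all 17183 genes tested, DESeq2 called 942 higher and 970 lower in Tg against WT. In Tg against KO it called 963 higher and 959 lower. edgeR called 4.92% and 5.69% of all genes in these comparisons, and in this list the zinc-finger gene Zfp37 alone. Zfp37 rose by 1.90 in Tg against WT (SE 0.40, edgeR adjusted p = 0.0260) and by 2.18 in Tg against KO (SE 0.45, edgeR adjusted p = 0.0204), with means of 1.64 CPM in Tg, 0.358 in KO and 0.441 in WT. The call against WT was lost without WT replicate 1 or Tg replicate 1 (edgeR adjusted p up to 0.0792), and that against KO without KO replicate 1, 2 or 3 or Tg replicate 1 (up to 0.0953). With the Y-linked covariate the value against KO was 1.66 (edgeR adjusted p = 0.158). Without the mixed libraries it was 3.34 against WT (edgeR adjusted p = 0.216) and 2.01 against KO (edgeR adjusted p = 0.325). In KO against WT the lowest p was that of Hoxb4 (-0.37, edgeR adjusted p = 0.709).

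Of 12 surface markers of stem cells, 1 was called higher in Tg against WT (Esam, an endothelial and stem cell adhesion molecule), 0 in KO against WT and 2 in Tg against KO (Esam and Procr). Esam rose by 0.73 in Tg against WT (SE 0.17, edgeR adjusted p = 0.0345) and by 1.13 in Tg against KO (SE 0.19, edgeR adjusted p = 0.00797), with means of 37.2 CPM in Tg, 17.0 in KO and 22.3 in WT. Procr, the gene nearest to Prdm16 above, had 21.8, 18.2, 18.2 and 34.5 CPM in Tg, 13.1, 11.6 and 9.49 in KO and 25.1, 15.2, 15.4 and 20.5 in WT. It rose by 1.02 in Tg against KO (SE 0.26, edgeR adjusted p = 0.0413) and was -0.74 in KO against WT (SE 0.25, edgeR adjusted p = 0.611). The call of Esam against WT was lost without WT replicate 1, 2 or 4, KO replicate 1 or Tg replicate 1, 2 or 3 (edgeR adjusted p up to 0.107), and that of Procr without WT replicate 4, any KO library or Tg replicate 1, 2 or 4 (up to 0.143). With the Y-linked covariate Procr was 0.70 in Tg against KO (edgeR adjusted p = 0.228). Without the mixed libraries Procr was 1.29 (edgeR adjusted p = 0.355) and Esam 1.30 (edgeR adjusted p = 0.193) in Tg against KO, and Esam was 0.54 in Tg against WT (edgeR adjusted p = 0.639), none of them called. The median over the 12 markers was 0.14 in Tg against WT, -0.35 in KO against WT and 0.51 in Tg against KO.

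In KO against WT edgeR, limma-voom and DESeq2 each called 0 genes of these lists. At an unadjusted p under 0.05 by edgeR, which 7.09% of all genes had in that comparison, it held 1 of 18 partners of the GATA2, TAL1 and LMO2 complex, 0 of 9 heptad factors and relatives, 3 of 10 relatives of MEIS1 and HLF, 0 of 10 cofactors of MECOM and PRDM16, 1 of 17 partners of MLLT3, 1 of 6 partners of EYA1, 2 of 16 targets, 0 of 18 other regulators and 4 of 12 surface markers. The share of all genes at that p was 22.1% in Tg against WT and 21.7% in Tg against KO. In the other lists without a call by edgeR, the same count was 2 of 9 heptad factors and relatives in Tg against WT and 3 of 9 in Tg against KO. For relatives of MEIS1 and HLF and for cofactors of MECOM and PRDM16 in Tg against WT it was 2 of 10 and 3 of 10. For partners of MLLT3 it was 2 of 17 in Tg against WT and 0 of 17 in Tg against KO, and for partners of EYA1 1 of 6 and 2 of 6. For GATA2, TAL1 and LMO2 partners it was 6 of 18 and 5 of 18 in the same order. Targets had 5 of 16 and 8 of 16, other regulators 6 of 18 and 8 of 18, and surface markers 1 of 12 and 7 of 12. In Tg against KO these targets were 4 higher and 4 lower, other regulators 6 and 2, and surface markers 7 and 0. Relatives of MEIS1 and HLF had 2 of 10 there, and cofactors of MECOM and PRDM16 had 3 of 10. DESeq2 called Elf1, Pbx3, Ski and the corepressor gene Ctbp2 in Tg against WT and Dach1 in Tg against KO among the lists without a call by edgeR, and limma-voom called none of them there. Among the lists with calls by edgeR, DESeq2 called 3 of 18 complex partners, 3 of 16 targets and 1 of 12 surface markers in Tg against WT. In Tg against KO it called 2 of 18, 5 of 16 and 5 of 12 of these. Over all 17183 genes tested, DESeq2 called 942 higher and 970 lower in Tg against WT, and 963 and 959 in Tg against KO. Of the genes called by edgeR, limma-voom did not call Mfn2 or Trib2 in Tg against WT or Procr in Tg against KO.

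Markers of other cells that the gate could hold also differed between the libraries. Summed CPM of 12 stem cell surface markers was 1871 to 2165 in Tg, 1669 to 1719 in KO and 1656 to 2116 in WT. The sum of 8 megakaryocyte markers was 226 to 401 CPM in Tg, 80.8 to 167 in KO and 140 to 315 in WT, and that of 8 endothelial markers was 223 to 273 in Tg, 189 to 202 in KO and 232 to 254 in WT. That of 8 T and NK cell markers was 126 to 262 CPM in Tg, 98.0 to 112 in KO and 90.9 to 119 in WT. For each of these sums every Tg library lay above every KO library. For the lymphoid priming, erythroid, lineage gate, B cell and stromal sums below, every Tg library lay under every KO library. Of all genes tested, 20.8% did not overlap between Tg and KO. Taken gene by gene, the T and NK cell list went the other way. In Tg against KO 1 of its 8 genes lay above 0, and the list's median was -2.15 on the log2 scale. In Tg against WT 1 of the 8 lay above 0, and the list's median was -1.69. In each of these comparisons edgeR called 1 gene of the list higher and 3 lower in Tg. The sum of 10 granulocyte-monocyte progenitor markers was 5044 to 24344 CPM in Tg, 4075 to 5260 in KO and 1620 to 3821 in WT. That of 8 lymphoid priming markers was 687 to 880 CPM in Tg, 1302 to 1780 in KO and 1077 to 1825 in WT, and that of 8 erythroid markers was 6.30 to 21.3 in Tg, 27.4 to 31.3 in KO and 19.9 to 51.4 in WT. The sum of 8 mast cell and basophil markers, a lineage that also uses GATA2, was 152 to 521 CPM in Tg, 151 to 283 in KO and 115 to 329 in WT. The sum of 10 markers of the lineage gate was 516 to 601 CPM in Tg, 1444 to 6381 in KO and 605 to 4665 in WT, so every Tg library lay below every other library. That of 8 B cell markers was 38.2 to 120 CPM in Tg, 256 to 420 in KO and 108 to 963 in WT, and that of 8 stromal markers was 57.2 to 94.98 in Tg, 102 to 107 in KO and 65.5 to 101 in WT. The sums of 8 mature neutrophil markers (48.9 to 599 CPM in Tg, 34.5 to 68.8 in KO, 11.6 to 108 in WT) and of 8 macrophage markers (19.4 to 119 in Tg, 30.1 to 127 in KO, 32.4 to 213 in WT) overlapped between all groups. Single macrophage markers did differ: 7 of 8 were lower in Tg at an unadjusted p under 0.05 by edgeR, against WT and against KO, and 1 lay above 0. The macrophage list's median was -2.64 against WT and -2.25 against KO on the log2 scale. edgeR called Cd5l, Mrc1 and Spic lower in Tg against WT, and Cd5l and Spic in Tg against KO. Of the markers in these lists, Ly6g of the lineage gate and Col3a1 and Dcn of the stromal list had 0 counts throughout Tg, and no other was at 0 throughout a group; their part in the members' values was not tested.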

How the data were processed

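The deposited matrix holds the authors' raw counts, with genes named by symbol and not normalised. FastQC, Trimmomatic, STAR, HTSeq and the build mm10 are listed in the submitters' processing notes; versions, annotation, strand setting and filters were not given in the sources used here. A single edgeR fit (4.0.16, in R 4.3.3) covered all 11 libraries, with TMM factors, filterByExpr on genotype and no covariate. Each contrast was tested with the quasi-likelihood test and adjusted over 17183 genes, and the fit was checked on simulated data. It had 8 residual and 3.43 prior degrees of freedom. The SE is the size of the log2 fold change over the square root of F. Alternatives used DESeq2 1.42.0, limma-voom (limma 3.58.1), other scalings, filters and samples, covariates, and each library left out. Gene models (GENCODE M21) and promoter windows (RefSeq), both on GRCm38, which mm10 names as well, were matched by symbol. Named are all 9 members, for each other list its called genes or else the gene with the lowest p, and the 3 genes most like each member (centred log2 CPM with a prior count of 2). A few genes this rule picks are left out and not reported here. The members and lists were chosen with earlier results of these data known. Libraries of a group differed by more than sampling noise, so none was treated as a duplicate. Counting errors leave out duplicate reads, since there are no molecular identifiers. Plots were made in matplotlib 3.10.9 (Python 3.11.15).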

Additional observations from a re-analysis of the deposited data

Results flagged for a closer look

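The tests for a single library far from the rest of its group covered the 9 members in Tg and in WT, which are 18 groups of 4 libraries, and 2 stood out; chance alone marks about 1 in 20 such groups. Prdm16 in Tg stood out because replicate 4 held 54.7 CPM and the next library 32.1, a gap of 0.868 of the group's range, past Dixon's critical value. Lmo2 in Tg stood out because the same replicate 4 was the low library, with 379 CPM against 410.2 in the next, a gap of 0.855 of the range. Tg replicate 4 was also the highest Tg library for Mecom, Hlf, Gata2, Mllt3 and Tal1. The cause was not tested.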

How the results depend on the processing

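Of the 27 log2 fold changes of members, 14 kept their direction under all 24 alternatives and 13 did not, and no member was called in Tg against WT or KO against WT under any of them. In Tg against KO the number called higher, 0, was 2 with DESeq2, 1 with no filter on low counts and 0 to 1 with 1 library left out. Directions turned in these cases, and the cause was not tested. Without the 5 libraries holding both Xist and Y-linked reads (4 Tg, 1 KO and 1 WT left, the lone libraries taken to vary like Tg), KO against WT was 0.37 for Mecom, 0.0215 for Meis1, 0.20 for Gata2 and 0.11 for Mllt3, and Tg against WT was 0.27 for Mllt3. With the Y-linked level as a covariate, KO against WT was 0.046 for Gata2 and 0.027 for Mllt3, Tg against WT was -0.014 for Mecom, -0.15 for Hlf and -0.025 for Gata2, and Tg against KO was -0.071 for Gata2, -0.43 for Mllt3 and -0.12 for Eya1. Library totals alone gave -0.0151 for Hlf in Tg against WT, and limma-voom -0.044 for Mllt3 in Tg against KO. No scaling moved the median of all genes by more than 0.1.

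With 1 library left out, the range in KO against WT was -0.11 to 0.21 for Hlf and -0.14 to 0.11 for Gata2. In Tg against WT it was -0.086 to 0.25 for Mecom, -0.13 to 0.18 for Hlf, -0.095 to 0.17 for Gata2 and -0.47 to 0.030 for Mllt3. In Tg against KO it was -0.11 to 0.059 for Hlf, -0.076 to 0.23 for Gata2, -0.32 to 0.24 for Mllt3 and -0.016 to 0.20 for Eya1. Without turning, some values moved by over 1.5 times. In Tg against WT these were Meis1 (0.026 to 0.21), Prdm16 (0.021 to 0.46), Eya1 (-0.37 to -0.15), Tal1 (0.054 to 0.12) and Lmo2 (-0.13 to -0.046). In KO against WT they were Mecom (-0.34 to -0.058), Mllt3 (-0.35 to -0.022) and Tal1 (-0.23 to -0.070), and in Tg against KO they were Mecom (0.14 to 0.42) and Lmo2 (0.040 to 0.11).

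With the replicate number as a block (replicate block), Gata2 was 0.10 in KO against WT and -0.041 in Tg against KO, and Mllt3 was -0.15 in Tg against KO. Of 10 same-numbered pairs 0 had a correlation of deviations over 0.1 (-0.245 to 0.0959). Among the 11 libraries 1 correlated best with its own number, so no pairing by number was seen. A weak effect shared by same-numbered mice could go unseen in this check. The block left 118 genes higher and 103 lower in Tg against WT, 0 and 1 in KO against WT, and 124 and 179 in Tg against KO. It ended the calls of Phf6 (adjusted p = 0.0525), Tcf4, Zfp37, Mfn2, Trib2 and Esam in Tg against WT and of Tcf4, Ski, Zfp37 and Procr in Tg against KO. A fit of only the groups compared ended those of Tcf4 (adjusted p = 0.0532), Zfp37, Mfn2, Trib2 and Esam in Tg against WT. Library totals alone ended those of Mfn2 and Esam in Tg against WT and of Tcf4 in Tg against KO, upper quartile factors or a stricter filter that of Tcf4 in Tg against KO, no filter that of Mfn2 and robust estimation that of Trib2 in Tg against WT.

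Over all genes, Tg against WT gave 436 higher and 410 lower, against 942 and 970 with DESeq2, 194 and 164 with only the groups compared, 11 and 21 without the mixed libraries, and 125 to 618 and 86 to 558 with 1 library left out. The Y-linked covariate gave 744 higher. KO against WT gave 1 and 3, against 51 and 48 with DESeq2, 0 and 1 with limma-voom or only the groups compared, 0 and 0 without the mixed libraries, and 0 to 2 and 1 to 3 with 1 library left out; the covariate gave 0 higher. Tg against KO gave 452 and 526, against 963 and 959 with DESeq2, 187 and 254 with the covariate, 13 and 71 without the mixed libraries, and 109 to 523 and 178 to 596 with 1 library left out. Depth limits Prdm16 most, at 532 counts in its lowest library.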
